A study of Mus musculus with 2 samples.

Results

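Foxp4 binding sites that fell on transposable elements were examined in mouse fat progenitor cultures 2 days into beige differentiation. Beige adipocytes are cells of white fat that can turn on heat production. Of the 3317 Foxp4 peaks in the deposited list, 442 had a detailed annotation that named a repeat of class LINE, SINE, LTR or DNA, which was 13.3% (exact 95% binomial interval 12.2 to 14.5). The choice used the annotation and not the score. The annotation is that of the authors' file and describes the position of the peak within a named element, without the strand or the part of the element. Repeats were named in introns and between genes, with 0 of the 772 repeat-annotated peaks elsewhere, so the 442 peaks were also 15.0% (13.7 to 16.4) of the 2945 intronic and intergenic peaks. Those of the 2945 with no repeat named, 2173 peaks, and the 285 peaks on simple tandem repeats served for comparison.

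The cultures came from iWAT, the inguinal white fat of C57BL/6 mice, and were started from its stromal vascular fraction (SVF), which holds every cell that remains once the mature fat cells are removed. They were grown for 3 days with 20% serum (FBS) and then induced for 48 h with 10% serum, the hormones insulin (5 µg/ml) and T3 (50 nM), the glucocorticoid dexamethasone (1 µM), the phosphodiesterase inhibitor isobutylmethylxanthine (0.5 mM) and the PPARγ agonist troglitazone (5 µM). One ChIP library made with a Foxp4 antibody and 1 input library of the same cells were sequenced, and the peak list of the ChIP library is what was analysed here. Genotype, age, sex and pooling of the mice are not given in the sources used here, and a peak list holds no expression by which the cell type could be checked. With 1 library there is no replicate error and no test between samples. The intervals below cover counting error over peaks, and read depth is unknown.

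Transposable elements are DNA sequences that copied themselves through genomes. LINEs, of which L1 is the active family in mouse, encode the enzymes of their own reverse transcription, and SINEs are short non-coding elements copied by them. The mouse SINEs include B1, listed here under the family name Alu, as well as B2 and B4, which arose in rodents, and the older MIR elements that many mammals share. LTR elements are descended from retroviruses and carry regulatory sequence in their long terminal repeats, among them the ERVK family with the intracisternal A particle (IAP) elements. DNA transposons such as the hAT-Charlie and TcMar-Tigger families are old and no longer move in mouse. In mammals SINEs are dense near genes, and L1 elements are dense in gene-poor regions. Foxp4 belongs to the forkhead transcription factors, which bind A/T-rich words related to TGTTTAC.

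Sequences were at hand for the 300 bases around annotated RefSeq start sites (GRCm38.p6, the assembly behind mm10), and 4 of the 442 peaks overlapped such a window (0.905%, 0.247 to 2.30), against 34 of the 2173 peaks without a repeat (1.56%, 1.09 to 2.18). The 3 windows at non-coding RNA models are shown, since their letters lie under element-bound peaks over at least 298 of the 300 bases. The fourth, at the protein-coding model Gm40369, shared 96 bases with an RMER12B peak of score 101 and is not printed. The bounds of the elements were not at hand, so the letters, and the matches marked in them, may lie in the named element or beside it. Each is written 5′ to 3′ along the RNA's own strand, with matches on either strand in capitals. Searched were the forkhead word TGTTTAC and its variants with another second base (TATTTAC) or sixth base (TGTTTGC). The tandem word TTTGTTTG was added after the sequences were seen. The first is chr11:113173034-113173333, minus strand, the window of LOC115487747, under a peak on IAPLTR2_Mm (score 120). The second is chr15:102750841-102751140, plus strand, the window of Gm36560, under a peak on the B1 element B1F (score 196). The third is chr2:167553062-167553361, plus strand, the window of Gm11476, under a peak on L1MB7 (score 26). In the authors' file these 3 peaks were assigned to other genes. They were 2610035D17Rik (start site 28.8 kb away, peak in its intron 1), Gm38436 (4.2 kb away) and Snai1, and distances elsewhere in the text use those assignments.
LOC115487747, IAPLTR2_Mm peak: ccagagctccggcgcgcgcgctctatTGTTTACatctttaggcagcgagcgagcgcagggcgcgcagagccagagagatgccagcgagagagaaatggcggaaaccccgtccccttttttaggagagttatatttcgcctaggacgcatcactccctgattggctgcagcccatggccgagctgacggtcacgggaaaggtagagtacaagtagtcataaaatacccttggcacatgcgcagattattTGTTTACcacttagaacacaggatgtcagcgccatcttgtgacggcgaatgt
Gm36560, B1F peak: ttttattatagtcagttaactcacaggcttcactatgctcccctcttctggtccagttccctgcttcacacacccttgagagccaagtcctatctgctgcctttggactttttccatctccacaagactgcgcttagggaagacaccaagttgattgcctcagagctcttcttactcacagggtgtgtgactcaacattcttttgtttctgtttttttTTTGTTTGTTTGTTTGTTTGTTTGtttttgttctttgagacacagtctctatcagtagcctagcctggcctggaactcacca
Gm11476, L1MB7 peak: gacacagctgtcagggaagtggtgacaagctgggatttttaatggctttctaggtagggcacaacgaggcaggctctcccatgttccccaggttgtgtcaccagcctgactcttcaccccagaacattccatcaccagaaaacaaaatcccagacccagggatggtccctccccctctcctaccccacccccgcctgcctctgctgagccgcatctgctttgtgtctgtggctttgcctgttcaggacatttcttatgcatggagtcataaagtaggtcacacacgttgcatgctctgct

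The LOC115487747 window lay wholly inside its peak, whose centre was 3 bp outside the window, and held 2 matches to TGTTTAC on the strand shown, at positions 27 and 249 of the 300. Of all 32817 promoter windows of this length, 3.65% held TGTTTAC on either strand, 3.04% TATTTAC, 5.06% TGTTTGC and 11.2% at least 1 of these 3. The Gm36560 window shared 298 bases with its peak and held none of these 3 words. It held a run of 24 bases made of overlapping copies of TTTGTTTG, a word found in 2.61% of the windows. Because that word was picked after this sequence was seen, its share does not measure how unusual the window is. TTTGTTTG shares the letters TGTTTG with the forkhead word TGTTTGC. The Gm11476 window, which also lay wholly inside its peak, held none of the 4 words, and neither did the Gm40369 window. A match is a description of letters and not evidence of binding at that place.

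By class the 442 peaks comprised 142 on LINEs (32.1%, 27.8 to 36.7), 139 on SINEs (31.4%, 27.1 to 36.0), 104 on LTR elements (23.5%, 19.7 to 27.8) and 57 on DNA transposons (12.9%, 9.92 to 16.4). They fell into 24 families, of which 14 had at least 5 peaks, and into 197 named elements. No element name dominated: 108 names occurred once, and the 21 names with at least 5 peaks held 154 of the 442. Families were also grouped by name alone, as a rough guide to origin. The names Alu, B2, B4, ID and ERVK, grouped as rodent-lineage, held 145 peaks. Those grouped as mammal-wide (L2, CR1, RTE, MIR, hAT and TcMar) held 95, and families of mixed age or others 202. The age of single elements was not checked, and a family need not be confined to the lineage it was grouped under. How much of the genome each family covers was not compared here, so these counts do not show whether a family was bound more often than its abundance.

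**Figure D1:**
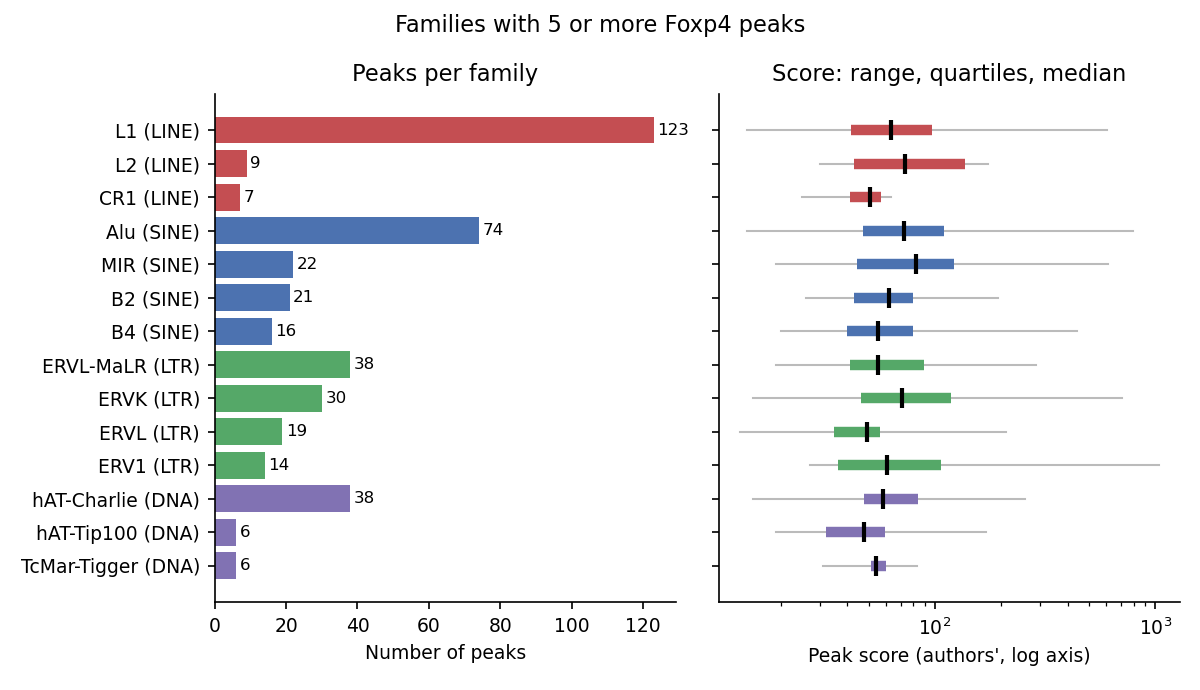
Left, number of Foxp4 peaks in each of the 14 families with at least 5 peaks, coloured by class. Right, the authors' peak score on a log axis, with a thin line for the range, a thick line for the quartiles and a tick for the median. L1 held 123 peaks and Alu 74, and the ERV1 family reached the highest score, 1037.

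Each peak carries a whole-number score from the authors' processing, used here only to describe peaks within this list. Element-bound peaks had a median score near that of peaks with no repeat and below that of peaks on simple tandem repeats. It was 60 (order-statistic 95% interval 58 to 67, quartiles 42 to 101, range 13 to 1037), against 62 (60 to 65, quartiles 39 to 97) without a repeat, and 94 (85 to 109, quartiles 60 to 164) on simple tandem repeats. The intervals of the first 2 groups overlap and that of the simple repeats lies above both. Among peaks at or above the median score of the list, the element-bound median was 6 higher than without a repeat instead of 2 lower. That subset was cut on the score itself and has no interval, so a change of direction is not shown. Scores of at least 200 were reached by 30 of the 442 (6.79%, 4.63 to 9.55), by 6.40% (5.40 to 7.51) of peaks without a repeat and by 21.1% (16.5 to 26.3) of those on simple repeats.

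Element-bound peaks were spread over the whole range of scores. From the highest to the lowest of 5 nearly equal score groups their number was 78, 88, 97, 94 and 85. They were 13 of the 100 highest peaks, and 3.01% of all peaks are in that group against 2.94% (1.58 to 4.98) of the element-bound ones. Peak widths were similar too, with a median of 390.5 bp (quartiles 331 to 459) against 397 bp (335 to 492) for peaks without a repeat. Median scores by class were 62 for LINEs (55 to 75), 68 for SINEs (59 to 79), 55 for LTR elements (49 to 67) and 58 for DNA transposons (51 to 66), with intervals that overlap one another.

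**Figure D2:**
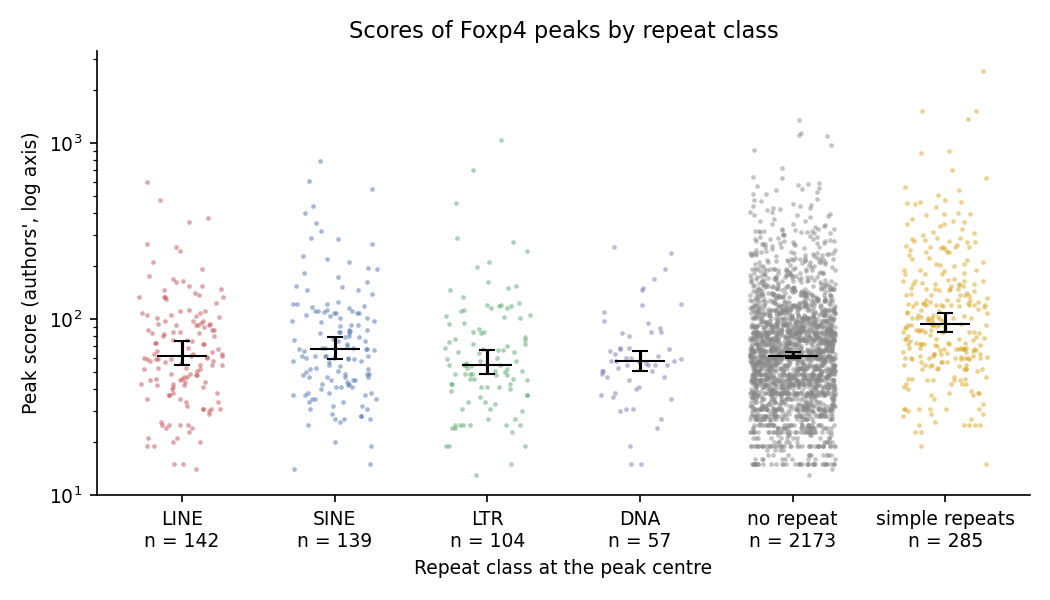
The authors' peak score (log axis) of each Foxp4 peak by the repeat class named at it, with intronic and intergenic peaks without a repeat and peaks on simple tandem repeats beside the 4 classes of transposable elements. Bars are medians with 95% order-statistic intervals; the 4 classes have medians from 55 to 68, near the 62 of peaks without a repeat and below the 94 of simple repeats.

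The largest SINE family was Alu, which holds the B1 elements and their ancestral form. It had 74 peaks with a median score of 72.5 (59 to 92). The mouse names B1_Mus1 and B1_Mus2 had 16 each, with medians of 80 (49 to 154) and 102.5 (51 to 267), and B1_Mm had 10 with a median of 60.5 (32 to 173). The ancestral, or proto-B1, names, which begin with PB1, had 13 with a median of 47 (27 to 92). The intervals of all of these overlap. The 21 B2 peaks, 9 of them on B2_Mm2 and 9 on B3, had a median of 62 (43 to 80), and the 16 of the B4 family 55 (37 to 101). MIR elements had 22 peaks and the highest median of the SINE families with at least 5 peaks, 82, with an interval of 41 to 122 that spans the others' medians.

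The highest SINE peak, score 796, lay on a B1_Mus1 element 13.3 kb upstream of the nearest start site, that of Parp16, an ADP-ribosyltransferase of the endoplasmic reticulum (chr9:65200635-65202102). At 1468 bp it was the widest of the 442 peaks. A B1_Mus2 peak of score 552 (chr12:85793190-85793788) was nearest to Erg28 but lay in intron 3 of Flvcr2, a choline and haem transporter gene. The B4A peak of score 441 lay 52.8 kb upstream of Ctnna1, which encodes the adhesion protein alpha-catenin. The highest B1_Mm peak, with 400, lay in intron 2 of Nsmce2, a SUMO ligase of the SMC5/6 complex, which takes part in DNA repair.

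LINE peaks were mostly L1, with 123 of 142. Split by name after the annotations were seen, 78 lay on L1 elements shared by many mammals (median score 67, 55 to 85) and 45 on rodent L1 elements (59, 47 to 80). Only 4 peaks lay on names beginning with L1Md, the group that includes the elements still active in mouse. Their scores were 474 (L1Md_T, nearest to 3100003L05Rik), 375 (L1Md_T, nearest to Hrh4, a histamine receptor gene), 163 (L1Md_F2, nearest to Jag1, a Notch ligand gene) and 111 (L1Md_F2, nearest to Agtr2, an angiotensin receptor gene). All 4 were above the median of the list, 65, but they were picked out after their values were seen and are too few for an interval. The older murine Lx names held 30 peaks with a median of 52.5 (42 to 76). Among them Lx8b had 5, with scores of 602, 267, 109, 101 and 72. The first of these was the highest LINE peak, 36.8 kb upstream of the non-coding gene 4930503F20Rik (chr14:33847802-33848294). L2 elements had 9 peaks (median 73, 35 to 170) and CR1 elements 7 (51, 25 to 63).

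LTR peaks included the highest of the 442. It scored 1037, rank 10 of the whole list, and lay on RLTR14_RN of the ERV1 family, 165 kb from the start site of Dtwd1, a tRNA-modifying enzyme gene (chr2:126317061-126317928). The ERVK family had 30 peaks with a median of 71 (51 to 111). Its highest, score 704, lay on RLTR20C1_MM 1.86 kb upstream of Epyc, which encodes epiphycan, a small proteoglycan of the extracellular matrix (chr10:97641936-97642472). Next came RLTR44-int with 458, 51.8 kb from Llph. IAP names were given to 7 peaks, 6 on IAPLTR2_Mm with scores of 123, 120, 74, 55, 46 and 25 and 1 on IAPLTR1a_Mm with 31. The ERVL-MaLR family had 38 peaks (55.5, 46 to 72), led by an MTD element with 289 nearest to Mir6354. The ERVL family had 19 with a median of 49 (34 to 58), led by MT2A with 210, and its 5 RMER15 peaks scored between 13 and 50. ERV1 had 14 peaks (60.5, 30 to 121).

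DNA transposon peaks were fewest and had the lowest top score, 257, on Charlie19a (chr15:59772596-59773100). The hAT-Charlie family held 38 of the 57 (median 58, 51 to 69), hAT-Tip100 had 6 (47.5, 19 to 170) and TcMar-Tigger 6 (54, 31 to 83). A Kanga1c peak of score 237 lay in intron 2 of Lnx1, a ubiquitin ligase gene. A Cheshire peak of 192 lay in intron 47 of the collagen gene Col24a1, although Znhit6 was the nearest start site. Scores of at least 200 were reached by 2 of the 57 (3.51%, 0.428 to 12.1).

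SINE and LINE peaks differed in where they lay relative to genes. The median distances below have no intervals. SINE peaks were closest to start sites, with a median distance of 25.4 kb, against 32.1 kb for LTR elements, 40.1 kb for LINEs, 46.9 kb for DNA transposons and 38.7 kb for peaks without a repeat. More than 100 kb away lay 12.2% of SINE peaks (7.29 to 18.9) and 27.5% of LINE peaks (20.3 to 35.6), intervals that do not overlap. The intervals of LTR elements (25.0%, 17.0 to 34.4) and DNA transposons (24.6%, 14.1 to 37.8) overlap both. Without a repeat the share was 24.6% (22.8 to 26.4). Within the SINEs, Alu peaks had a median distance of 17.7 kb. As a group the 442 peaks had 200 at 10 to 50 kb (45.2%, 40.5 to 50.0), against 37.3% (35.2 to 39.3) of peaks without a repeat. On simple repeats the share was 41.1% (35.3 to 47.0), an interval that overlaps both. These groups of peaks come from 1 library and were not tested against each other, and the positions of the elements themselves in the genome were not compared.

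**Figure D3:**
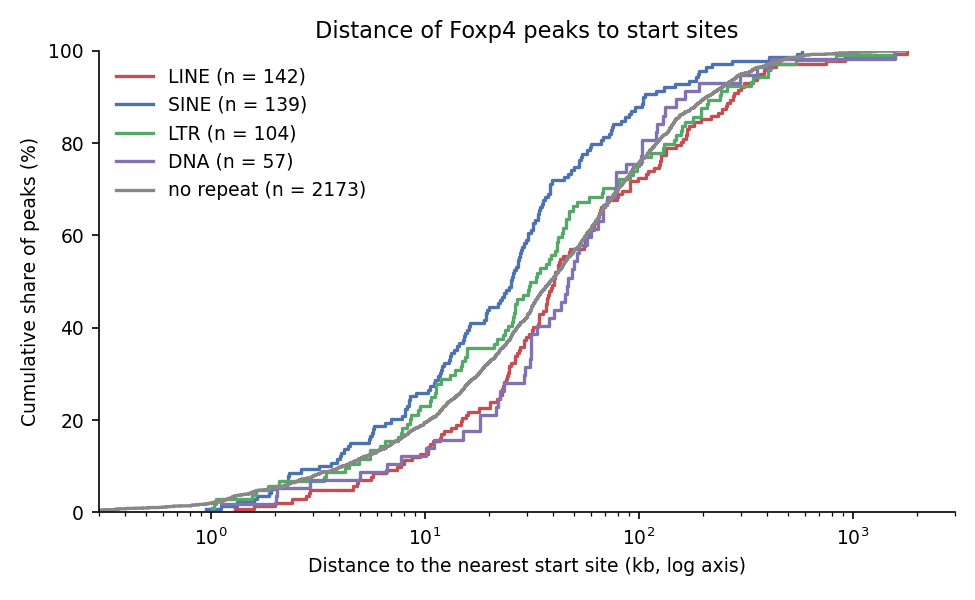
Cumulative share of Foxp4 peaks (%) against the distance to the nearest start site (kb, log axis), for the 4 classes of transposable elements and for intronic and intergenic peaks without a repeat. The SINE curve lies to the left of the others over most of its course, with a median of 25.4 kb.

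Introns held 150 of the 442 peaks (33.9%, 29.5 to 38.6), below the 45.1% (42.9 to 47.2) of peaks without a repeat. The lower share came with the LINE peaks (26.8%, 19.7 to 34.8) and the LTR peaks (25.0%, 17.0 to 34.4), whereas 43.9% of SINE peaks (35.5 to 52.5) and 43.9% of DNA transposon peaks (30.7 to 57.6) were intronic. Among L1 peaks 13.3% of those on rodent elements (5.05 to 26.8) and 29.5% of those on older elements (19.7 to 40.9) were in introns. Of the intronic peaks 51 of 150 lay in intron 1 (34.0%, 26.5 to 42.2), close to 37.1% (34.0 to 40.2) without a repeat. By class that was 29 of 61 SINE peaks, 8 of 38 LINE, 8 of 26 LTR and 6 of 25 DNA transposon peaks, with intervals that overlap. The host gene was found for 148 of the 150, and for 44 of them (29.7%, 22.5 to 37.8) the nearest start site belonged to another gene, against 26.5% (23.8 to 29.4) without a repeat. An L2b peak of score 175, for example, was assigned to Tgfbr1, a TGF-beta receptor gene whose start site was 59.1 kb away, but lay in intron 28 of Col15a1, a collagen gene.

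**Figure D4:**
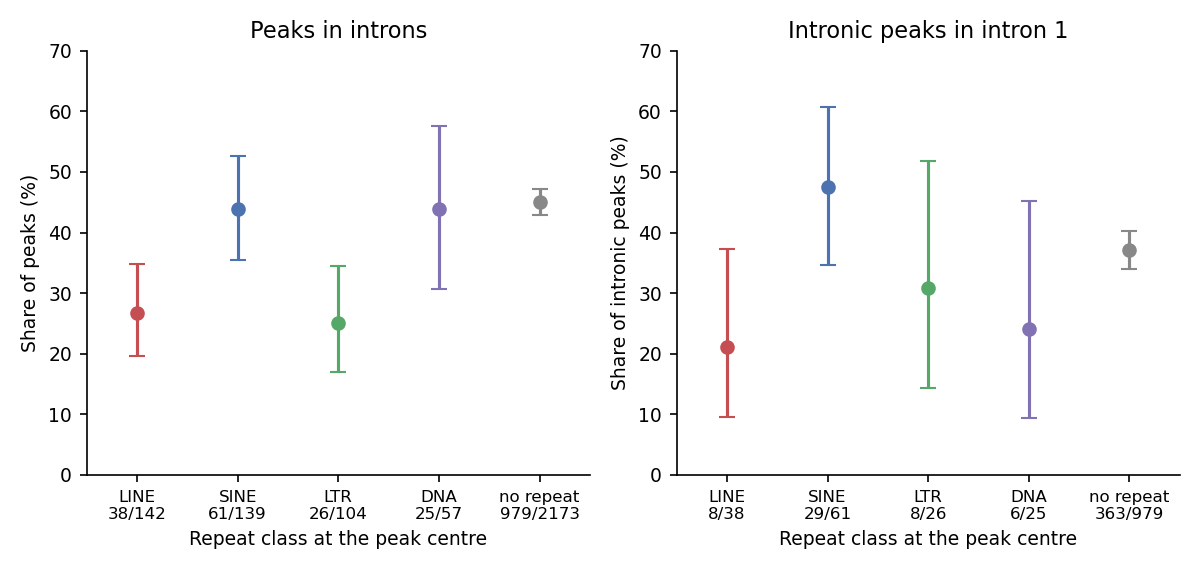
Left, share of Foxp4 peaks that lay in introns by repeat class. Right, share of intronic peaks that lay in intron 1. Points are shares in percent and bars exact 95% binomial intervals, with counts under each class; LINE and LTR peaks were intronic in 26.8% and 25.0%, against 45.1% of peaks without a repeat.

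Within 3 kb of a start site lay 31 of the 442 peaks (7.01%, 4.81 to 9.81), near the 7.74% of all intronic and intergenic peaks. Within 1 kb lay 1 (0.226%, 0.00573 to 1.25), against 43 of the 2173 peaks without a repeat (1.98%, 1.44 to 2.66) and 9 of the 285 on simple repeats (3.16%, 1.45 to 5.91). It was a B3 peak of score 34 in an intron 957 bp inside Ezh1, which encodes a histone H3 methyltransferase and was singled out after its value was seen. Peaks just upstream of a start site are annotated as promoters in the file, with no repeat named. Element-bound promoters of the start sites used in that annotation therefore cannot be seen here. The 4 peaks at RefSeq promoter windows described above lay at models that the file did not name as nearest, and are not counted within 1 kb. The 4 highest of the 31 were the Epyc peak, an RLTR40 peak in intron 2 of Adam18 (155), a B1_Mus2 peak 2.30 kb upstream of Cdk17, a cyclin-dependent kinase gene (153), and a MER20 peak 2.01 kb upstream of Tmem38b, which encodes a cation channel of the endoplasmic reticulum (151).

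The nearest genes of the 442 peaks were 427, of which 414 had 1 such peak, and 143 were also nearest to a peak outside the group. Among 21900 protein-coding genes 1.6% were nearest to an element-bound peak and 9.1% to any peak. Of 471 genes in 16 lists for this tissue and treatment, 18 were nearest to an element-bound peak (3.82%, 2.28 to 5.97) and 127 to any peak (27.0%, 23.0 to 31.2). The 18 became 9 with peaks within 50 kb of the start site, and 9 with peaks at or above the median score. Adipogenic regulators had 4 of 34, beside 19 of 34 nearest to any peak (55.9%). Of the 4, 1 remained within 50 kb and 2 at or above the median score. The 4 were Klf3 (MLT1H, score 95), Gata3 (PB1D10, 92), Klf9 (ID_B1, 43) and Klf4 (L1MC, 32), at distances from 42.7 to 86.6 kb. These transcription factor genes promote or restrain adipocyte formation. TGF-beta and BMP signalling had 4 of 41, beside 14 of 41 nearest to any peak (34.1%). The 4 were Tgfbr1, the activin subunit gene Inhbb (L1MC4a, 108), the inhibitory Smad6 (B1_Mus1, 77, in its intron 3) and the signal transducer Smad2 (URR1A, 55). Within 50 kb 1 of the latter 4 remained.

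Extracellular matrix genes had 3 of 35, beside 18 of 35 nearest to any peak (51.4%). The 3 were the matrix proteases Adamts5 (MLT1E2, 49, 258 kb away) and Adamts2 (FordPrefect, 38, in its intron 2) and the proteoglycan Vcan (L1M5, 34). Progenitor and fibroblast markers had 2 of 39, beside 14 of 39 nearest to any peak (35.9%). The 2 were the collagen genes Col3a1 and Col1a1 (Charlie25, 89, 15.1 kb upstream). In each of 6 further lists 1 gene had an element-bound peak. Their shares nearest to any peak ran from 10.0% (endothelial markers) to 37.5% (glucocorticoid-induced genes). The endothelial adhesion gene Pecam1 had an element-bound peak of score 245 on L1M2, 10.6 kb upstream. The forkhead gene Foxp1 had one of 97 on L1MA4, 127 kb away. For Igfbp3, which encodes a carrier of insulin-like growth factors, the score was 55 on Tigger7. For Ror2, a Wnt5a receptor gene, it was 31 on L1MDa, and for the beige marker Tmem26 it was 29 on L1M5, 157 kb away. The glucocorticoid-induced list shared Klf9 with the adipogenic regulators. Lists of cAMP and adrenergic genes (0 of 40), clock genes (0 of 24), lipid storage genes (0 of 38) and macrophage (0 of 20), smooth muscle and pericyte (0 of 15) and mesothelial and epithelial markers (0 of 15) had none. For each of these 6 lists the upper bound of the interval was at least 8.81%, above the 1.6% of all protein-coding genes, so a share like that of all genes was not detectable.

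For 13 gene names 2 or more element-bound peaks had a start site of that name as the nearest, not always the same one. Col3a1, the gene of a fibrillar collagen of fibroblasts, had 3 among its 6 peaks. A MIR peak of score 607 lay 14.4 kb upstream (chr1:45296837-45297426), 2.63 kb from a peak without a repeat that scored 82. Peaks on Lx5b (75, 267 kb upstream) and Lx3A (49, 47.8 kb downstream) were the other two. The highest peak of that gene, 1519, was on a simple repeat in an intron. Cdkn2b, which encodes a cell cycle inhibitor, had 3 among its 4 peaks, on Lx8b (101), Lx9 (53) and L2b (30), all in introns of the non-coding gene Gm12610 and 40.7 to 149.5 kb upstream. The fourth, with no repeat, scored 15. These 2 genes were the protein-coding ones with 3 element-bound peaks.

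**Figure D5:**
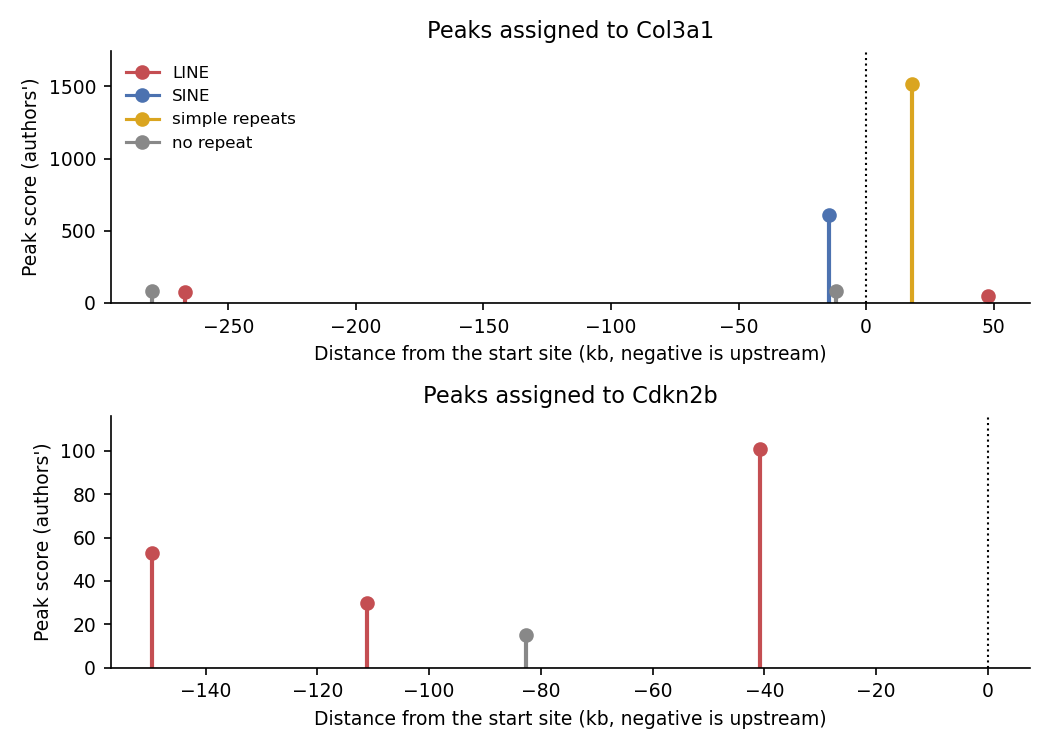
The authors' score of each peak assigned to Col3a1 (top) and Cdkn2b (bottom) against its distance from the start site (kb, negative is upstream, dotted line at the start site), coloured by the repeat class named at the peak. At Col3a1 the MIR peak (SINE) reaches 607 beside the simple-repeat peak of 1519, and at Cdkn2b 3 of the 4 peaks are on LINEs with scores from 30 to 101.

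Some of the genes with 2 element-bound peaks were multicopy, where reads can align to several places. Rn4.5s, a 4.5S RNA gene, had RMER12B peaks of scores 101 and 46 among 9 peaks on chromosome 6. The pseudogene Gm8989 had 2 peaks on MYSERV6-int, of scores 276 and 146, 45.7 and 44.2 kb from a start site of that name on chromosome 7. The sources used here do not give the treatment of such reads. Its part in these peaks, and in those on IAP and L1Md names, was not tested. Hif1a, the oxygen-responsive transcription factor gene, had peaks on Zaphod3 (60) and MamRep1527 (24), 68.4 and 93.8 kb upstream. Plod2, a collagen-modifying enzyme gene, had peaks on L1MA5 (42) and MMERVK9C_I-int (37).

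Another peak was within 10 kb of 41 of the 442 element-bound peaks (9.28%, 6.74 to 12.4), near the 12.4% (11.1 to 13.9) of peaks without a repeat and the 9.12% (6.05 to 13.1) on simple repeats. In 4 of these 41 the closest peak was also on a transposable element and in 6 on a simple repeat. On the 19 autosomes there were 437, or 0.179 per Mb between the outermost annotated genes (Poisson 95% interval, exact, 0.163 to 0.197), from 0.118 on chromosome 1 to 0.262 on chromosome 11. Chromosome X, which is rich in L1, had 4, or 0.0234 per Mb (0.00639 to 0.0600). Among them were L1 peaks nearest to Agtr2 (111) and Cldn34b3 (38) and a B3 peak nearest to Cnga2 (80). As a share of the peaks on the chromosome that was 4 of 37 (10.8%), with 13.3% over all chromosomes.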

How the data were processed

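Foxp4-bound DNA and input DNA were sequenced from the same kind of cells (1 library each). The authors deposited a list of peaks on mm10, and per the file headers a narrowPeak file was annotated with annotatePeaks.pl of HOMER. The submitters' processing notes name MACS2, SAMtools, Picard, deepTools 3.3.0 and Bowtie2 without roles. The deposited score is a whole number, and the sources used here do not give its scale. They give neither the use of the input, which was not analysed here, nor the treatment of reads with several alignments. Distances to start sites (bp), nearest genes and repeats are those the authors deposited.

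The 3317 peaks were all used; a closing line of the file that holds none was dropped. Shares have exact (Clopper-Pearson) intervals and medians order-statistic intervals, both at 95% (SciPy 1.17.1, pandas 2.3.3). The intervals of medians were checked on simulated data. No test over peaks was run. Host genes, the set of all protein-coding genes and promoter sequences came from RefSeq tables of GRCm38.p6. The types of nearest genes are those the authors deposited. All 471 list symbols matched. The peaks, gene lists and groupings were chosen with earlier results of these data known. Named were the 10 highest peaks, the 4 highest per class and within 3 kb of start sites, the highest of each family and element name with at least 5 peaks (some not shown), genes with at least 3 peaks, and up to 4 per gene list. Other genes named were chosen after their values were seen. The planned motif count in peak sequences was replaced by a description of promoter windows, with the word TTTGTTTG added after the sequences were seen. Alternatives covered score limits, close peaks, chromosomes, widths, windows and class names. Some results are not reported here.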

Additional observations from a re-analysis of the deposited data

How the results depend on the processing

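Leaving out peaks with a score under 30, peaks below the median score, all but the highest peak per 10 kb, or chromosomes X and Y left the share of element-bound peaks and the shares of the 4 classes within their intervals, as did counting other interspersed classes for the first of these. The median score moved with the score limits by construction, to 68 at 30 or more and to 105 at or above the median. Its difference from peaks without a repeat was -2, became 6 at or above the median score and was -5 against all other peaks. The share within 3 kb of a start site became 0.226% within 1 kb and 10.9% within 5 kb. The 18 list genes became 9 at or above the median score and 9 with peaks within 50 kb of the start site. Splitting L1 by name was added after the data were seen. It raised the share grouped as rodent-lineage from 32.8% to 43.0% and that grouped as mammal-wide from 21.5% to 39.1%. Of 50 such recomputed values 40 stayed within the interval or within 1.5 times the count, as did 46 of 60 counts for single gene lists. No paired analysis was possible because there was 1 ChIP library, and no replicate could be left out. Without read depth, and with 57 peaks in the smallest class, differences between classes of less than about the width of the intervals were not detectable.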

Other observations

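Repeats of other kinds were named at 18 peaks that belong neither to the 4 classes of transposable elements nor to simple repeats or regions of low complexity. RMER1A and RMER1B, rodent repeats that the annotation lists under the class Other, had 9 peaks with a median score of 76 (48 to 220), the highest 382 nearest to Ccz1 and the next 220 nearest to Gm32865. The satellite name IMPB_01 had 3, of which 1 scored 734 over 1426 bp, 9.65 kb from the start site of Serpina3n, a protease inhibitor gene, and the other two 37 each. Copies of structural and other non-coding RNA genes made up 5 more. These were 4.5SRNA (122) and HY3 (72) in the Rn4.5s region of chromosome 6, an rRNA fragment nearest to Isl1 (69), a U5 copy nearest to Parp16 (32) and a tRNA copy nearest to Six6 (23). The U5 copy was the closest peak to the B1_Mus1 peak of score 796. Regions of low complexity had 27 peaks with a median of 72 (62 to 102).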
